A study of Mus musculus with 6 samples.

Results

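The TCF and LEF family of the mouse has 4 genes, Tcf7, Lef1, Tcf7l1 and Tcf7l2, and all 4 were found by their symbols among the 24015 gene symbols of each deposited count file. All 4 carried enough counts to be among the 12939 genes tested. Their RNA was measured in 6 libraries of total RNA from sorted DN3 thymocytes, a stage of T cell development at which the beta chain gene of the T cell receptor is rearranged. They were sorted from the thymus as negative for CD4, CD8 and lineage markers, with low CD44 and high CD25. Tcf1-deficient libraries came from mice of the genotype Lck-cre+ Tcf1 fl/fl, in which Cre under the T-lineage promoter of Lck was used to delete Tcf1; how complete the loss was is not stated. p45-deficient libraries came from p45-/- mice, described as deficient for the long isoforms of Tcf1. Control libraries came from mice labelled wild type. Each group had 2 libraries. No Cre or floxed allele is listed for the wild-type controls, so effects of these alleles and of Tcf1 loss cannot be told apart. The sources used here give neither the ages of the mice nor the construction of the p45 allele. Whether the replicates are separate animals is not stated in the labels, and the p-values rest on the spread of these libraries alone, which may be technical.

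TCF and LEF proteins bind DNA through an HMG box, a domain that fits into the minor groove and bends the helix. Forms with a complete amino terminus bind beta-catenin, which reaches the nucleus when Wnt signals block its destruction, and without it the proteins recruit Groucho/TLE corepressors. Tcf7, which encodes Tcf1, and Lef1 are the members known from the T lineage, where they act in part redundantly. Tcf7l1 is known from embryonic stem cells and skin epithelium, and Tcf7l2 from the gut epithelium. The symbols Tcf3 and Tcf4 in such files stand for E protein genes, not for Tcf7l1 and Tcf7l2, and were not counted as members.

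The coding sequences of the members differ at many positions, even in the domain where they are most alike. The 210 bases of coding sequence that the 4 genes share best lie in the HMG box and the basic stretch after it. They are printed from the annotated coding sequences of GENCODE M21 (build GRCm38, sense strand), with capitals where all 4 genes carry the same base. The stretch covers coding bases 592 to 801 of Tcf7, a gene of chromosome 11. It covers bases 919 to 1128 of Lef1 on chromosome 3, 1099 to 1308 of Tcf7l1 on chromosome 6 and 1009 to 1218 of Tcf7l2 on chromosome 19.
Tcf7: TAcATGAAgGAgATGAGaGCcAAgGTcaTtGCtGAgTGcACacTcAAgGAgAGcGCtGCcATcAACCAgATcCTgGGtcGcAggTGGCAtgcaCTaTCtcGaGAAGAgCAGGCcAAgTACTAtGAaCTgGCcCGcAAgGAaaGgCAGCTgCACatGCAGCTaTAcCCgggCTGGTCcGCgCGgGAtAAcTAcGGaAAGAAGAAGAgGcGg
Lef1: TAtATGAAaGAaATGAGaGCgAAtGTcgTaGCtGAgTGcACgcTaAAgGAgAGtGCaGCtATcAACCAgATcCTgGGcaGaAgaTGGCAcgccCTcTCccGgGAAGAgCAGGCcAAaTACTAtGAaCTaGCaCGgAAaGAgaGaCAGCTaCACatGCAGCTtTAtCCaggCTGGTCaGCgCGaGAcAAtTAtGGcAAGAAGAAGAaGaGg
Tcf7l1: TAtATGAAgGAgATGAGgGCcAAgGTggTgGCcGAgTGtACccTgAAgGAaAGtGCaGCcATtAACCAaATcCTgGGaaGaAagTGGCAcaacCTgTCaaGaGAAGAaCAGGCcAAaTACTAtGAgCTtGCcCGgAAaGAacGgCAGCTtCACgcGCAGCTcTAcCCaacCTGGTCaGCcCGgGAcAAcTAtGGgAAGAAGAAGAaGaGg
Tcf7l2: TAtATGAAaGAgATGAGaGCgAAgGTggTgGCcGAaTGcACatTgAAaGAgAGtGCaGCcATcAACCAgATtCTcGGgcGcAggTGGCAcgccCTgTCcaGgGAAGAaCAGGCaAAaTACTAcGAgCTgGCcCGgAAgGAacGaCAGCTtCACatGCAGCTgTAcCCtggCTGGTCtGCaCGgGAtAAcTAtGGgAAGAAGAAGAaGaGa
Of the 210 positions, 143 (68.1%) were the same in all 4 genes. Pairs of genes were identical at between 78.1% (Tcf7 and Tcf7l1) and 82.9% (Tcf7l1 and Tcf7l2) of positions, and Tcf7 and Lef1 at 81.0%. Even so, the longest exact run shared by the coding sequences of any pair was 23 bases, and no run of 50 bases was shared between the annotated transcripts of any pair. Both coding transcripts that GENCODE M21 lists for Tcf7 share 1 coding sequence of 909 bases. This annotation thus does not show the long and short forms of Tcf1 apart, and it does not mean that Tcf7 encodes a single protein. The annotation used for the counting is not stated, and counts per gene do not separate isoforms. Reads counted for Tcf7 in p45-deficient or Tcf1-deficient cells therefore do not measure which Tcf1 proteins remain.

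Library totals ran from 19640524 to 28107031 counts, and 3 counts corresponded to 0.11 to 0.145 CPM, a level relative to the TMM-adjusted library size. All 10 listed markers of the DN3 stage had counts in every library, but not at one level. Their summed level was 6117 and 9215 CPM in Tcf1-deficient, 9101 and 8311 CPM in p45-deficient and 8864 and 8250 CPM in control libraries. Among them, Il2ra encodes CD25, on which the cells were sorted. It was at 923 and 1991 CPM in Tcf1-deficient, 1561 and 1348 CPM in p45-deficient and 969 and 1197 CPM in control libraries. Tcf1-deficient replicate 1 stood apart. Its Cd4 level was 372 CPM, against 46.1 CPM in Tcf1-deficient replicate 2, 64.6 and 64.4 CPM in p45-deficient and 63.1 and 86.5 CPM in control libraries. Its Cd44 level was 41.0 CPM, against 4.70 CPM in Tcf1-deficient replicate 2 and 4.74 to 7.94 CPM in the p45-deficient and control libraries. The summed level of 15 immediate-early and heat-shock genes was 2966 and 3679 CPM in Tcf1-deficient, 364 and 358 CPM in p45-deficient and 684 and 3617 CPM in control libraries. It was lowest in the p45-deficient libraries, and the controls differed widely between themselves. Of 14 such genes tested, edgeR called 2 lower and 0 higher in p45-deficient against control cells, beside 7.55% and 8.47% of all tested genes. The median log2 fold change of the 14 was −2.46, beside 0.05 over all genes. In Tcf1-deficient against p45-deficient cells, 4 were higher and 0 lower, beside 5.05% and 5.36% of all tested genes (median 3.24, beside −0.01). Omission of 1 library moved these counts between 0 and 12 lower and between 0 and 13 higher. Their part in the comparisons with p45-deficient cells was not tested. Replicates of a group differed over all tested genes with an SD, on the log2 scale, of 0.787 for Tcf1-deficient, 0.49 for p45-deficient and 0.51 for control libraries.

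Tcf7 and Lef1 made up nearly all family RNA in all 3 groups, and the members kept one order of levels per transcript length in every library. With the length of the longest protein-coding GENCODE transcript as divisor, Tcf7 stood highest, at 396 ± 0.931 CPM per kb in Tcf1-deficient, 962 ± 21.2 in p45-deficient and 789 ± 79.5 in control cells (mean ± SD, n = 2 each). Lef1 came next, at 173 ± 3.49 CPM per kb in Tcf1-deficient, 284 ± 7.49 in p45-deficient and 127 ± 6.63 in control cells. These levels are those of abundant mRNAs. Of 22667 symbols with a length, Tcf7 ranked between 58 and 126 and Lef1 between 190 and 445 in the 6 libraries. Tcf7l2 was far below, at 1.87 ± 0.839 CPM per kb in Tcf1-deficient, 0.809 ± 0.0872 in p45-deficient and 2.60 ± 0.477 in control cells. Tcf7l1 was lowest, at 0.431 ± 0.106 CPM per kb in Tcf1-deficient, 0.238 ± 0.131 in p45-deficient and 0.536 ± 0.119 in control cells. Within each library no neighbours in this order changed places. Tcf7l1 and Tcf7l2 together supplied 0.394% and 0.648% of the family's CPM in Tcf1-deficient, 0.111% and 0.110% in p45-deficient and 0.402% and 0.546% in control libraries.

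**Figure D1:**
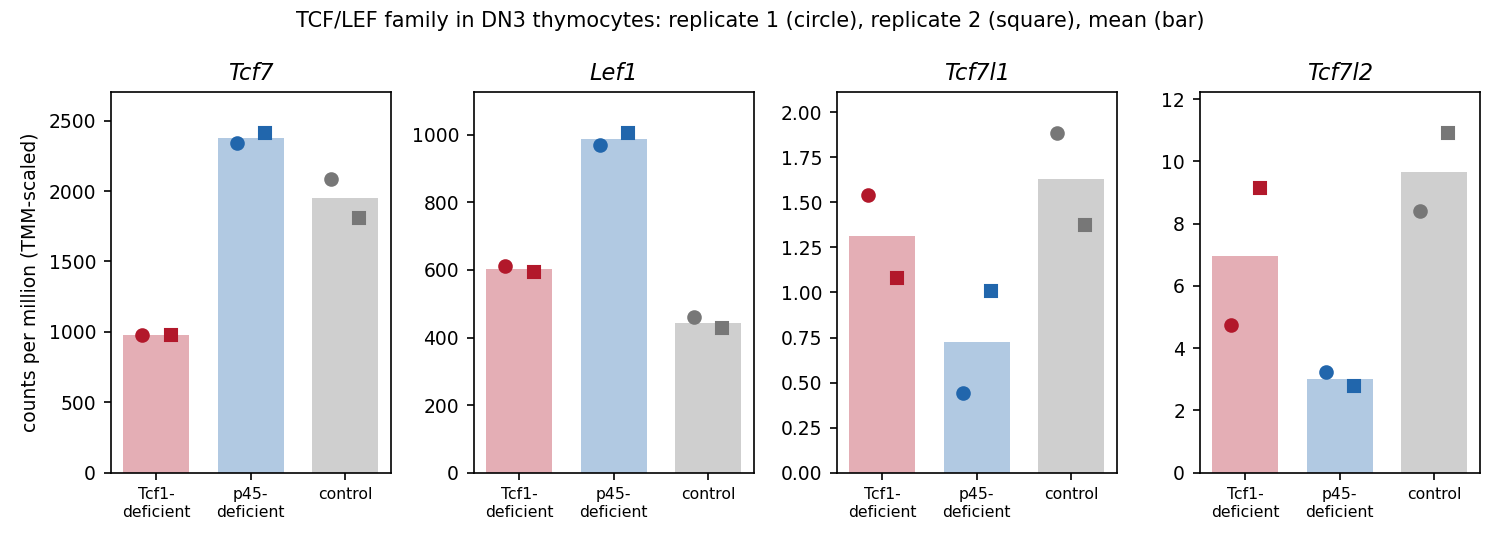
Level of each TCF/LEF gene in CPM (TMM-scaled, linear axis from 0, own scale per gene) in Tcf1-deficient, p45-deficient and control DN3 thymocytes, with replicate 1 as a circle, replicate 2 as a square and the mean as a bar (n = 2 per group). Lef1 is ordered p45-deficient, Tcf1-deficient, control with no overlap between groups, while Tcf7 is lowest in the Tcf1-deficient libraries.

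Tcf7 is the gene targeted in both mutants and was therefore looked at before the others. It had 22276 and 23453 counts in Tcf1-deficient libraries, which is 979 and 976 CPM. The p45-deficient libraries had 63652 and 50421 counts, or 2340 and 2414 CPM, and the control libraries 43187 and 47423 counts, or 2088 and 1810 CPM. Both Tcf1-deficient libraries lay below all others, and both p45-deficient libraries lay above both controls. The latter held for 37.9% of all tested genes. Tcf1-deficient replicate 1, which stood apart in Cd4 and Cd44, had almost the same Tcf7 level as replicate 2. The remaining level was 0.502 times that of control on the fitted scale. The sources used here do not say which part of the gene is deleted, and a deletion of a few exons leaves reads over the others. In bulk RNA, fewer cells with an intact gene and less RNA per cell cannot be told apart.

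Against control, Tcf1-deficient cells had a Tcf7 log2 fold change of −0.995 (SE 0.11), with an adjusted p of 0.0762 by edgeR's quasi-likelihood test. This adjusted p is the smallest in that comparison, in which 0% of tested genes were called at the threshold of 0.05, while 1024 genes had an unadjusted p below 0.05 and DESeq2 called 145. By p, Tcf7 ranked 3 of the 12939 genes. Both Tcf1-deficient libraries lay below both controls in 18% of tested genes, and the groups did not overlap in 34.4%. Of 12 alternatives, 4 passed: DESeq2, a fit with low counts kept in, and the omission of either Tcf1-deficient library, with adjusted p between 4.61e-12 and 0.0404. The omission of control replicate 1 gave an adjusted p of 1. Against p45-deficient cells, Tcf7 was lower in Tcf1-deficient cells by edgeR's test, at −1.28 on the log2 scale (standard error 0.11, adjusted p = 0.0031), and was called in all 12 alternatives. That comparison called 10.4% of tested genes, 5.05% higher and 5.36% lower, and 33.3% had both Tcf1-deficient libraries below both p45-deficient ones. For p45-deficient against control cells the test gave a log2 fold change of 0.29 (standard error 0.11, adjusted p = 0.115 by edgeR), which did not pass in any of 12 alternatives.

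The gene Skp1a (official symbol Skp1), a subunit of SCF ubiquitin ligases, overlaps Tcf7 in the RefSeq annotation of GRCm38.p6. Its level was 260 and 333 CPM in Tcf1-deficient, 463 and 437 CPM in p45-deficient and 229 and 276 CPM in control libraries. Skp1a was higher in p45-deficient than in control cells, with a log2 fold change of 0.83 (standard error 0.16, adjusted p = 0.0163 by edgeR). Vdac1, a channel gene of mitochondria and a nearest counted neighbour, was at 238 and 323 CPM in Tcf1-deficient, 367 and 394 CPM in p45-deficient and 283 and 299 CPM in control libraries, and was not called in any comparison. With no strand setting stated for the counting, reads where Tcf7 and Skp1a overlap may not be separated, and their part in the Tcf7 values was not tested.

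Lef1 was higher in p45-deficient than in control cells. It had 13921 and 14292 counts in Tcf1-deficient libraries, or 612 and 595 CPM. The p45-deficient libraries had 26365 and 21014 counts, or 969 and 1006 CPM, and the control libraries 9520 and 11202 counts, or 460 and 428 CPM. The 3 groups did not overlap, with p45-deficient libraries highest, Tcf1-deficient libraries between and control libraries lowest. Between p45-deficient and control cells, 69.3% of tested genes did not overlap, and 37.9% of tested genes were above control in both libraries. In p45-deficient cells Lef1 was 2.22-fold higher than in control cells, a log2 difference of 1.15 (standard error 0.11, adjusted p = 0.0021 by edgeR). That comparison called 16% of the tested genes, 8.47% higher and 7.55% lower, and Lef1 ranked 53 by p. Lef1 was called in all 12 alternatives, with a log2 fold change between 1.05 and 1.19. The split of calls in this comparison moved with the scaling, from 1096 higher and 977 lower with TMM to 721 higher and 1281 lower with library totals and 820 higher and 1175 lower with upper-quartile factors. Over all genes the median was 0.05 with TMM and −0.06 with library totals, a shift that the Lef1 difference exceeded under each scaling.

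In Tcf1-deficient cells, both Lef1 values lay above both controls, with a log2 fold change of 0.44 (SE 0.10), but the adjusted p was 0.419 by edgeR. It passed in 2 of 12 alternatives, which were DESeq2 (adjusted p = 0.0102) and the omission of Tcf1-deficient replicate 2 (adjusted p = 0.0489). For comparison, 16.4% of all tested genes had both Tcf1-deficient libraries above both controls. Against p45-deficient cells, Lef1 was lower in Tcf1-deficient cells, with a log2 fold change of −0.71 (standard error 0.11, adjusted p = 0.0124 by edgeR), which is again beside 10.4% of tested genes called. The libraries of these groups did not overlap in 61% of tested genes. The call was lost without p45-deficient replicate 1 (adjusted p = 0.12) and without p45-deficient replicate 2 (adjusted p = 0.116), with log2 fold changes of −0.75 and −0.69. In the other 10 alternatives it was kept. Library totals split the calls of this comparison into 744 higher and 483 lower, beside 654 higher and 694 lower with TMM.

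The gamma-delta and the natural killer and innate lymphoid marker lists had sums in the same order as Lef1, but not all their members did. The sum of the B cell list did not follow this order. It was 19.7 and 29.3 CPM in Tcf1-deficient, 16.1 and 13.5 CPM in p45-deficient and 35.4 and 28.2 CPM in control libraries. The summed level of 4 gamma-delta T cell markers in the files (Sox13, Cd163l1, Blk and Maf) was 268 to 291 CPM in Tcf1-deficient, 367 to 502 CPM in p45-deficient and 139 to 170 CPM in control libraries, and none of the 4 was at 0 in any library. Cd163l1, a scavenger receptor family gene, made up most of the p45-deficient sum, at 110 and 114 CPM in Tcf1-deficient, 383 and 249 CPM in p45-deficient and 68.4 and 53.0 CPM in control libraries. Cd163l1 was called higher in p45-deficient than in control cells and lower in Tcf1-deficient than in p45-deficient cells, as Lef1 was. Sox13, a transcription factor gene, went the other way, at 105 and 112 CPM in Tcf1-deficient, 60.6 and 66.2 CPM in p45-deficient and 77.1 and 66.0 CPM in control libraries, and was called higher in Tcf1-deficient than in p45-deficient cells (log2 fold change 0.78, adjusted p = 0.0167 by edgeR). Maf, another transcription factor gene, had its highest value in Tcf1-deficient replicate 1, at 51.2 and 20.02 CPM in Tcf1-deficient, 20.3 and 15.5 CPM in p45-deficient and 6.91 and 5.46 CPM in control libraries. The summed level of 6 natural killer and innate lymphoid markers was 362 to 373 CPM in Tcf1-deficient, 835 to 847 CPM in p45-deficient and 157 to 187 CPM in control libraries. Most of that sum was Gzma, a granzyme gene, at 215 and 306 CPM in Tcf1-deficient, 806 and 799 CPM in p45-deficient and 123 and 136 CPM in control libraries. Nkg7, a gene of cytotoxic granules, did not follow this order, at 65.3 and 54.8 CPM in Tcf1-deficient, 25.4 and 21.4 CPM in p45-deficient and 24.0 and 38.5 CPM in control libraries, and was called higher in Tcf1-deficient than in p45-deficient cells (log2 fold change 1.36, adjusted p = 0.0191 by edgeR). With either p45-deficient library omitted, no gene of either list was called higher in Tcf1-deficient than in p45-deficient cells, and without p45-deficient replicate 1 no gamma-delta marker was called lower. Il2rb, a cytokine receptor gene of the natural killer list, was at 80.6 and 11.8 CPM in Tcf1-deficient libraries. It was at 14.3 and 14.3 CPM in p45-deficient and 9.38 and 12.1 CPM in control libraries. The close sums of this list in Tcf1-deficient libraries thus hide differences between replicates in single genes. Ncr1, a defining receptor of natural killer cells, was at 0 in 5 of the 6 libraries. The part of cells with these markers in the Lef1 values was not tested. The immediate-early and heat-shock sums differed most between the controls, where Lef1 stood at 460 and 428 CPM. The p45-deficient sums lay below those of both controls, and the part of such genes in the Lef1 values was not tested.

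Lef1 supplied its highest share of the pair's counts in Tcf1-deficient cells, a lower one in p45-deficient cells and the lowest in control cells. Tcf7 is part of the pair's counts and is the targeted gene, so a lower Tcf7 level by itself raises this share. In Tcf1-deficient cells Tcf7 was at 0.502 times control, and Lef1 was not called against control. The share there is therefore not a measure of Lef1 alone. Of the counts of Lef1 and Tcf7 together, Lef1 supplied 38.5% (95% Wilson interval 38.0 to 39.0) and 37.9% (37.4 to 38.4) in Tcf1-deficient libraries. The share was 29.3% (29.0 to 29.6) and 29.4% (29.1 to 29.8) in p45-deficient libraries. In control libraries it was 18.1% (17.7 to 18.4) and 19.1% (18.8 to 19.4). The groups did not overlap, and the gaps between groups were larger than the differences between replicates. These intervals cover counting error only, and with 2 libraries a group an exact permutation test cannot go below p = 0.333. The total of the pair differed between the mutants. The summed level of Lef1 and Tcf7 was 1591 and 1571 CPM in Tcf1-deficient, 3309 and 3420 CPM in p45-deficient and 2548 and 2238 CPM in control libraries. In Tcf1-deficient cells the sum lay below control, and in p45-deficient cells above it.

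**Figure D2:**
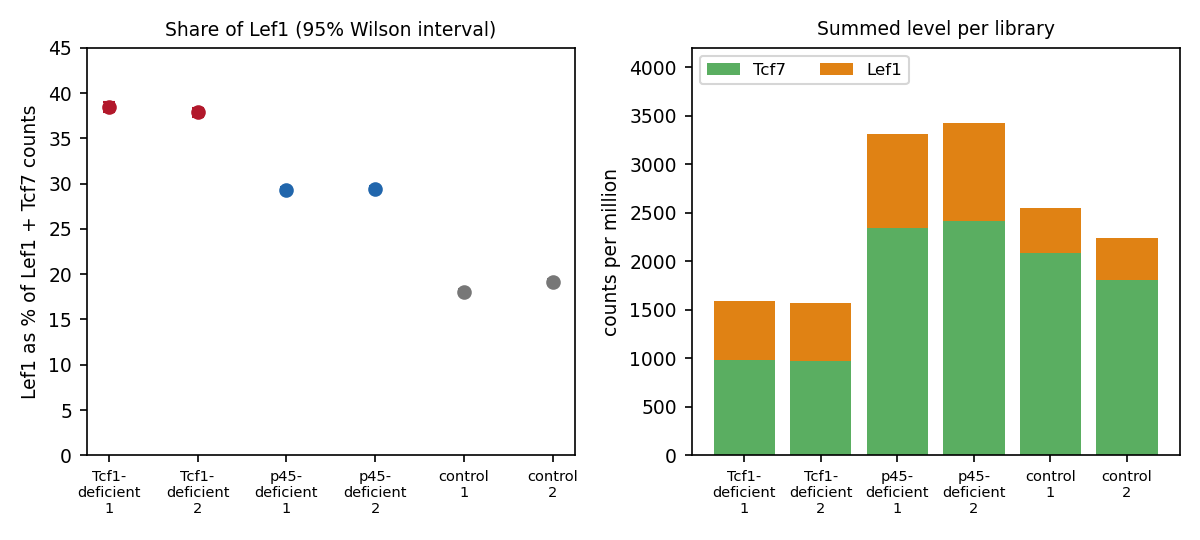
Left, Lef1 counts as a percentage of Lef1 plus Tcf7 counts in each library, with 95% Wilson intervals about as tall as the points or shorter. Right, the summed level of Tcf7 (lower part of each bar) and Lef1 (upper part) in CPM, showing sums of 1591 and 1571 in Tcf1-deficient, 3309 and 3420 in p45-deficient and 2548 and 2238 in control libraries.

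Tcf7l2 was lower in p45-deficient than in control cells, at a low level throughout. It had 108 and 220 counts in Tcf1-deficient libraries, or 4.75 and 9.16 CPM. The p45-deficient libraries had 88 and 58 counts, or 3.23 and 2.78 CPM, and the control libraries 174 and 286 counts, or 8.41 and 10.9 CPM. Both p45-deficient libraries lay below the other 4, while Tcf1-deficient and control libraries overlapped. In 31.3% of all tested genes both p45-deficient libraries lay below both controls, and 7.55% were called lower in that comparison. In p45-deficient cells Tcf7l2 was 3.21-fold lower than in control cells, with a log2 fold change of −1.68 (standard error 0.38, adjusted p = 0.0274 by edgeR). The call was lost when either control or either p45-deficient library was left out, with adjusted p between 0.0969 and 0.164 and log2 fold changes between −1.91 and −1.54.

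Between Tcf1-deficient and control cells the Tcf7l2 log2 fold change was −0.48 (standard error 0.36, adjusted p = 0.749 by edgeR), and −0.08 without Tcf1-deficient replicate 1. Against p45-deficient cells it was 1.21 (standard error 0.38, adjusted p = 0.0807 by edgeR), which passed without Tcf1-deficient replicate 1 (log2 fold change 1.66, adjusted p = 0.0127), with DESeq2 (adjusted p = 0.0244) and when low counts were kept (adjusted p = 0.0416). The summed level of 8 early progenitor genes was 50.03 and 70.7 CPM in Tcf1-deficient, 15.1 and 11.9 CPM in p45-deficient and 85.2 and 80.3 CPM in control libraries. Like Tcf7l2, this sum was lowest in p45-deficient cells, but it was not the only such list. B cell marker sums were 19.7 to 29.3 CPM in Tcf1-deficient, 13.5 to 16.1 CPM in p45-deficient and 28.2 to 35.4 CPM in control libraries. Myeloid marker sums were 9.36 to 11.8 CPM, 6.36 to 9.29 CPM and 11.2 to 13.6 CPM in the same order. In Tcf1-deficient and control libraries most of the early progenitor sum was Kit, a growth factor receptor gene of early thymocytes. Kit was at 38.6 and 54.4 CPM in Tcf1-deficient, 5.55 and 6.65 CPM in p45-deficient and 53.4 and 54.8 CPM in control libraries. Of the 8 early progenitor genes, edgeR called 4 lower and 1 higher in p45-deficient against control cells, beside 7.55% and 8.47% of all tested genes. Those lower were Kit, Bcl11a, Mef2c and Hhex. The 1 higher was Lyl1, a transcription factor gene (log2 fold change 1.74, adjusted p = 0.0345 by edgeR), so the list did not change as one. Hhex was near the floor, with 17 and 18 counts in control and 1 and 0 counts in p45-deficient libraries. Mef2c had 10 and 1 counts in p45-deficient libraries. Without one control library 1 or 2 were lower and without one p45-deficient library 3, and none of the list was higher in these 4 fits. The part of such cells in the Tcf7l2 values was not tested.

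Tcf7l1 was close to the limit of what these libraries can compare. It had 35 and 26 counts in Tcf1-deficient, 12 and 21 counts in p45-deficient and 39 and 36 counts in control libraries. This is 1.54 and 1.08 CPM in Tcf1-deficient, 0.441 and 1.01 CPM in p45-deficient and 1.89 and 1.37 CPM in control libraries. Both p45-deficient values lay below both controls, with a log2 fold change of −1.18 (standard error 0.59, adjusted p = 0.209 by edgeR). In that comparison 31.3% of all tested genes had both p45-deficient libraries below both controls. Tcf1-deficient and control libraries overlapped, with a log2 fold change of −0.31 (standard error 0.57, adjusted p = 0.913 by edgeR). Against p45-deficient cells the Tcf1-deficient values lay above, with a log2 fold change of 0.87 (standard error 0.60, adjusted p = 0.357), where 27.7% of all tested genes did so. No difference in Tcf7l1 was detectable at this depth.

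**Figure D3:**
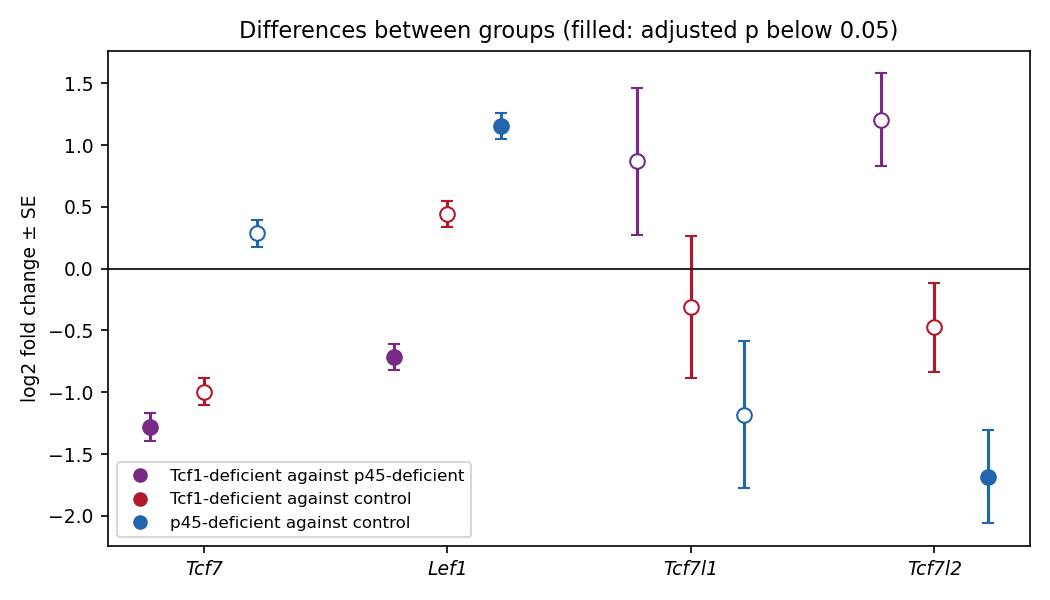
Log2 fold change ± SE of the 4 members in Tcf1-deficient against p45-deficient, Tcf1-deficient against control and p45-deficient against control cells, from edgeR's quasi-likelihood fit to all 6 libraries. Filled points passed an adjusted p of 0.05. They are Tcf7 and Lef1 below 0 in Tcf1-deficient against p45-deficient cells, and Lef1 above 0 and Tcf7l2 below 0 in p45-deficient against control cells.

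The genes most like each member across the 6 libraries were found by the root mean square difference of log2 CPM, centred per gene, over 12938 other genes. Nearest to Lef1 were Tubb2a, a beta-tubulin gene (0.0434 log2 units), Cenpa, the centromeric histone H3 variant (0.0601), and Gemin6, a component of the SMN complex that assembles spliceosomal snRNPs (0.0618). Cenpa, for example, was at 64.1 and 63.6 CPM in Tcf1-deficient, 110 and 118 CPM in p45-deficient and 49.4 and 44.9 CPM in control libraries. Nearest to Tcf7 were Trpc6 (0.106), Slc43a1, an amino acid transporter gene (0.123), and 2900026A02Rik (0.128). Slc43a1 was at 28.3 and 28.1 CPM in Tcf1-deficient, 54.8 and 59.0 CPM in p45-deficient and 49.9 and 45.6 CPM in control libraries, whereas Trpc6, a cation channel gene, did not exceed 1.05 CPM. Nearest to Tcf7l2 were Ifitm2, an interferon-induced transmembrane protein gene (0.112), Ypel2 (0.136) and Ociad2 (0.14). Ypel2 was at 86.5 and 172 CPM in Tcf1-deficient, 59.7 and 60.2 CPM in p45-deficient and 130 and 198 CPM in control libraries. Nearest to Tcf7l1 were Alx4 (0.126), Tmem158 (0.165) and Xcr1 (0.176), all at low levels. These are ranks among many genes over 6 libraries that share depth and group, and carry no test.

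The promoter windows of the members were searched for the core TCF/LEF recognition sequence. The motif CTTTGA was searched on both strands (reverse complement TCAAAG), together with its longer form CTTTGAT, which contains it, in 300-base windows of RefSeq starts (250 bases before to 50 after; GRCm38.p6). Of 32851 windows of all genes, 16.0% held CTTTGA and 3.73% held CTTTGAT. Of 9 windows of the 4 members, 1 held CTTTGA and none held CTTTGAT. With 9 windows, nothing about the members is read from these counts. The 1 window is before start 4 of Lef1, the most downstream of the annotated starts of this gene. Its 250 bases before the start (chr3:131156044-131156293, plus strand) are shown with the motif, read as TCAAAG on this strand at positions −180 and −120, in capitals.
Lef1 start 4: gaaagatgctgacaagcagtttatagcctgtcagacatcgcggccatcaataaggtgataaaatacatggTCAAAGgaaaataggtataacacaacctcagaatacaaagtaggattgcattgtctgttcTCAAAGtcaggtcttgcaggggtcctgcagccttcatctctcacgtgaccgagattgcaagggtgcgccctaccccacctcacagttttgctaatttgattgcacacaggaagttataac
A match is a description of these letters and not evidence of binding, and the counts do not tell which Lef1 start was used.

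Among the corepressors that TCF and LEF proteins recruit, Tle3 and Tle1 were lower in p45-deficient than in control cells. Of 8 tested Groucho/TLE and CtBP genes, 0 were higher, 2 lower and 6 not called in that comparison, in which 7.55% of all tested genes were lower, with a median log2 fold change of −0.41, beside 0.05 over all tested genes. Tle3 had 538 and 540 CPM in Tcf1-deficient, 281 and 316 CPM in p45-deficient and 684 and 608 CPM in control libraries. Both p45-deficient values were lowest, and Tle3 was lower than in control cells with a log2 fold change of −1.11 (standard error 0.12, adjusted p = 0.0035 by edgeR). Tle1 was at 17.2 and 16.8 CPM in Tcf1-deficient, 7.498 and 7.18 CPM in p45-deficient and 12.5 and 12.8 CPM in control libraries. It was lower in p45-deficient than in control cells with a log2 fold change of −0.78 (standard error 0.19, adjusted p = 0.0351 by edgeR). In Tcf1-deficient against p45-deficient cells, 2 of the 8 were higher and 0 lower, where 5.05% of all tested genes were higher (median 0.29, beside −0.01 over all genes). These were Tle3, with a log2 fold change of 0.85 (standard error 0.12, adjusted p = 0.0106), and Tle1, with 1.21 (standard error 0.19, adjusted p = 0.015 by edgeR). Against control, edgeR called 0 of the 8 in Tcf1-deficient cells (median −0.03, beside 0.01), where it called 0% of all tested genes. Of the 8, 1 had an unadjusted p below 0.05 in that comparison. DESeq2 called 1 higher there, and edgeR called 1 higher without Tcf1-deficient replicate 2. The smallest p there was that of Tle4, at 52.3 and 55.8 CPM in Tcf1-deficient, 41.5 and 42.5 CPM in p45-deficient and 31.9 and 35.9 CPM in control libraries (log2 fold change 0.67, standard error 0.13, adjusted p = 0.286 by edgeR). In p45-deficient against control cells, 1 corepressor gene was called lower when any one control or p45-deficient library was omitted, and 4 and 3 when Tcf1-deficient replicate 1 or 2 was. For Tcf1-deficient against p45-deficient cells, none was called when either p45-deficient library was omitted, and 2 or 3 were in the other omissions.

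Ctnnb1, the gene of beta-catenin itself, was not called by edgeR in any comparison. It stood at 370 and 386 CPM in Tcf1-deficient, 457 and 455 CPM in p45-deficient and 415 and 414 CPM in control libraries. Of 8 tested genes of beta-catenin and its coactivators, 4 were lower and 0 higher in p45-deficient against control cells, beside 7.55% of all tested genes lower (median log2 fold change −0.45, beside 0.05 over all genes). Ep300 and Crebbp, which encode histone acetyltransferases, had log2 fold changes of −0.48 (standard error 0.11, adjusted p = 0.0268 by edgeR) and −0.49 (standard error 0.13, adjusted p = 0.0466). Pygo2, a reader of methylated histone H3, had −0.56 (standard error 0.15, adjusted p = 0.0459 by edgeR), and Jup, the beta-catenin relative plakoglobin, −1.45 (standard error 0.40, adjusted p = 0.0497). None of the 4 was called when any one control or p45-deficient library was omitted, and 4 were when either Tcf1-deficient library was. The 1 gene higher in Tcf1-deficient against p45-deficient cells was Jup, at 27.0 and 11.2 CPM in Tcf1-deficient and 5.84 and 5.27 CPM in p45-deficient libraries (log2 fold change 1.78, adjusted p = 0.0375 by edgeR), a call lost when any one control or p45-deficient library was omitted. Over all tested genes, edgeR called 16% in p45-deficient against control, 0% in Tcf1-deficient against control and 10.4% in Tcf1-deficient against p45-deficient cells. Of 4 tested inhibitors of beta-catenin binding, it called 0 in each comparison. In p45-deficient against control cells 2 of them had an unadjusted p below 0.05, and 1 was called lower by DESeq2, with each other scaling, with low counts kept, in a fit to only these groups and without either Tcf1-deficient library. Between the mutants 1 had an unadjusted p below 0.05, and 1 was called higher in Tcf1-deficient cells by DESeq2 and without Tcf1-deficient replicate 2. In Tcf1-deficient against control cells 0 had an unadjusted p below 0.05, and neither DESeq2 nor any other alternative called one. Ctnnbip1, which keeps beta-catenin from TCF proteins, came nearest in p45-deficient against control cells, with a log2 fold change of −1.16 (standard error 0.33, adjusted p = 0.0514 by edgeR).

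**Figure D4:**
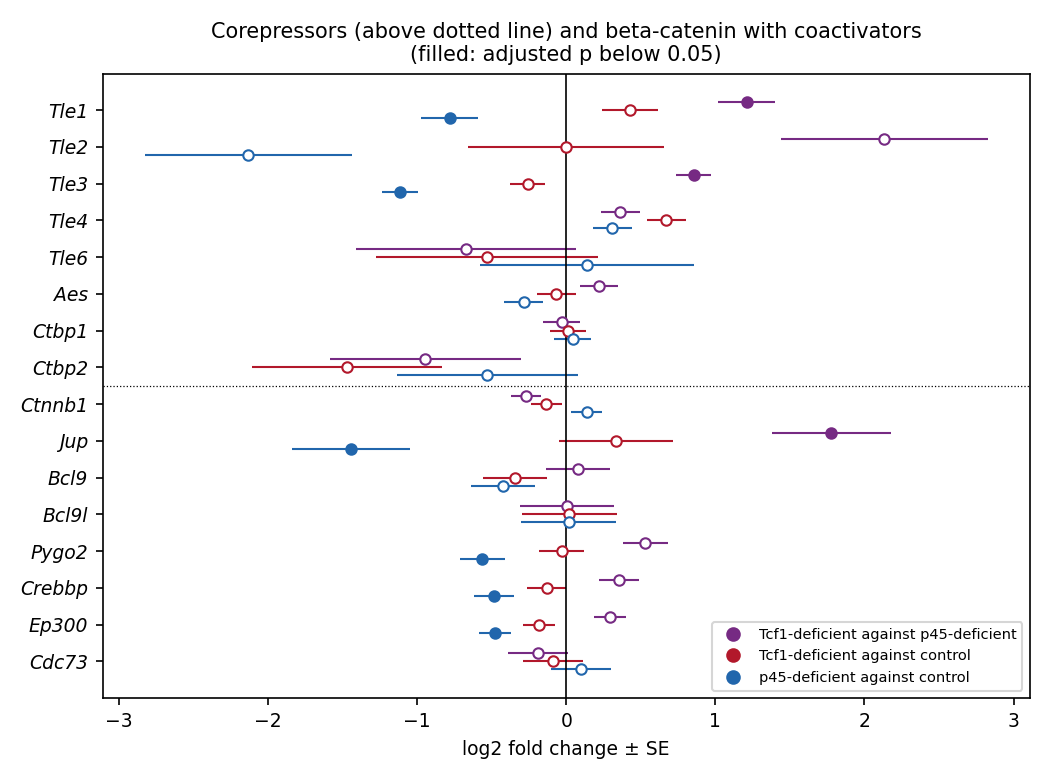
Log2 fold change ± SE of tested corepressor genes (above the dotted line) and of beta-catenin and coactivator genes (below it) in the 3 comparisons. Filled points passed an adjusted p of 0.05 by edgeR. In p45-deficient against control cells, Tle1, Tle3, Jup, Pygo2, Crebbp and Ep300 are below 0.

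Upstream of the family, few Wnt genes carried counts. Of 19 Wnt ligand genes, 6 were tested, and 1 was higher in p45-deficient than in control cells, beside 8.47% of all tested genes. This was Wnt5b, at 6.15 and 2.00 CPM in Tcf1-deficient, 29.1 and 30.7 CPM in p45-deficient and 4.54 and 2.40 CPM in control libraries. Wnt5b is known mainly as a ligand that acts without beta-catenin. Its values in p45-deficient libraries lay well above the others, with a log2 fold change against control of 3.11 (standard error 0.55, adjusted p = 0.0155 by edgeR). It was the 1 ligand called in Tcf1-deficient against p45-deficient cells, lower with a log2 fold change of −2.88 (standard error 0.54, adjusted p = 0.026). Omission of either p45-deficient library ended both calls, and omission of either control ended the call against control.

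Of 15 receptor genes, 9 were tested. Against control, 1 was higher and 3 lower in p45-deficient cells, beside 8.47% and 7.55% of all tested genes (median log2 fold change −0.79, beside 0.05 over all genes). Fzd10, a Frizzled receptor gene, was higher, at 2.57 and 3.78 CPM in p45-deficient and 0.822 and 0.420 CPM in control libraries. Lrp5, a coreceptor for Wnt, was lower, at 67.9 and 72.7 CPM in p45-deficient and 138 and 105 CPM in control libraries (log2 fold change −0.79, standard error 0.16, adjusted p = 0.0224 by edgeR). The Frizzled genes Fzd7 and Fzd9 were lower as well, with log2 fold changes of −1.43 (SE 0.33) and −3.68 (SE 0.81), although Fzd9 differed between the controls themselves, at 1.60 and 7.29 CPM. In Tcf1-deficient against p45-deficient cells, Fzd9 was higher (log2 fold change 4.33), and Fzd10 (−2.44) and Fzd5 (−0.86) were lower. In p45-deficient against control cells, 0 receptor genes were higher and 1 lower when either control was omitted, and none was called when either p45-deficient library was. For Tcf1-deficient against p45-deficient cells, omission of either p45-deficient library left none called, omission of either control left 1 higher, omission of Tcf1-deficient replicate 1 left 1 lower, and omission of Tcf1-deficient replicate 2 left 2 higher and 2 lower. Of 13 tested genes of the destruction complex and the Dishevelled adaptors, which pass the Wnt signal on to it, edgeR called 1, Dvl3, lower in p45-deficient than in control cells (log2 fold change −0.77, standard error 0.20, adjusted p = 0.0401). This is near the 7.55% of all tested genes called lower. The count was 0 when any one control or p45-deficient library was omitted and 3 when either Tcf1-deficient library was.

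Downstream of the family, Wnt target genes and T-lineage genes were counted in turn. Of 9 tested Wnt feedback and target genes, 1 was lower in p45-deficient than in control cells and 0 higher, beside 7.55% and 8.47% of all tested genes. The lower gene was Zcchc12, a coactivator gene of low level, with a log2 fold change of −1.31 (standard error 0.30, adjusted p = 0.0294 by edgeR). It was the 1 member of this list called in Tcf1-deficient against p45-deficient cells, higher by 1.36 on the log2 scale (standard error 0.30, adjusted p = 0.0361 by edgeR). The call against control was absent when any one control or p45-deficient library was omitted. The count between the mutants was 0 with control replicate 2 or either p45-deficient library omitted, in a fit to only these groups and with the replicate block. Omitting Tcf1-deficient replicate 1 gave 2 lower genes and none higher, and omitting replicate 2 gave 2 higher and none lower. Axin2, the feedback target most used as a readout of beta-catenin and TCF activity, was not called by edgeR in any comparison, at 22.02 and 9.78 CPM in Tcf1-deficient, 23.7 and 21.3 CPM in p45-deficient and 15.9 and 16.5 CPM in control libraries. Of 22 T-lineage genes known as bound by or dependent on Tcf1, edgeR called 0 in p45-deficient against control cells. There it called 16% of all tested genes, and the median log2 fold change of the 22 was 0.08, beside 0.05 over all genes. In Tcf1-deficient against control cells it called 0 of the 22 (median 0.01, beside 0.01) and 0% of all tested genes. The 0 in that comparison therefore tells nothing particular about these genes. Of the 22, 5 in p45-deficient and 3 in Tcf1-deficient against control cells had an unadjusted p below 0.05 by edgeR. DESeq2 called 1 higher and 2 lower in p45-deficient and 0 in Tcf1-deficient cells. The list includes Il2ra, Cd4 and Cd8a, whose proteins were used in the sort, so the sort may have limited differences in these genes. Of these 22, 2 were lower and 0 higher in Tcf1-deficient against p45-deficient cells, beside 5.36% of all tested genes lower. Rag1, of the V(D)J recombinase, was at 458 and 801 CPM in Tcf1-deficient, 1621 and 1539 CPM in p45-deficient and 1255 and 951 CPM in control libraries (log2 fold change −1.33 against p45-deficient, standard error 0.27, adjusted p = 0.032 by edgeR). Ptcra, the pre-TCR alpha chain gene, was at 97.3 and 153 CPM in Tcf1-deficient, 299 and 258 CPM in p45-deficient and 186 and 180 CPM in control libraries (log2 fold change −1.15, standard error 0.21, adjusted p = 0.0216 by edgeR). Both genes were at their lowest in Tcf1-deficient replicate 1, the library with high Cd4 and Cd44. In p45-deficient against control cells, omission of Tcf1-deficient replicate 1 gave 5 higher and 2 lower genes of this list, and omission of replicate 2 gave 6 and 1. In Tcf1-deficient against control cells, omission of Tcf1-deficient replicate 2 gave 2 higher and 3 lower. In Tcf1-deficient against p45-deficient cells, none was called when any one control or p45-deficient library was omitted, 5 were lower without Tcf1-deficient replicate 1, and 2 were higher and 4 lower without replicate 2.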

How the data were processed

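RNA of sorted DN3 thymocytes was sequenced in 6 libraries, grouped by the genotype in their labels. The deposited files hold 1 whole-number count per gene symbol and library, which the authors left without normalisation. TopHat2, featureCounts 1.5.0-p3, DESeq2 3.4 and build mm9 are named, per the submitters' processing notes. Neither annotation nor strand setting is stated in the sources used here. Library totals were 22878258 and 23820767 counts in Tcf1-deficient, 28107031 and 21826476 in p45-deficient and 19640524 and 25704385 in control libraries.

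Counts were filtered with filterByExpr, scaled with TMM and tested with edgeR 4.0.16 in R 4.3.3 by the quasi-likelihood F test (robust, two-sided), with 1 mean per group over all 6 libraries (3 residual degrees of freedom). P-values were adjusted by Benjamini-Hochberg over all tested genes, and a gene was called at an adjusted p below 0.05. SEs were taken from the F statistic. The script was tested on simulated data. Alternatives were DESeq2 1.42.0, other scalings, no filter, a fit to only the groups compared, a replicate block and leaving out each library. Same-numbered libraries did not deviate together.

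The reference annotation at hand is GRCm38, another build than mm9. It was used for lengths, neighbours and sequences, credited to GENCODE M21 and RefSeq. All 4 members matched by symbol. Named genes are the 4 members, the 3 genes most like each, up to 3 called genes (or the 1 with the smallest p) per list, sort markers and neighbours. Ctnnb1, Axin2, Lyl1 and Il2rb, and Jup, Fzd10 and Hhex in p45-deficient against control cells, were added after their values had been seen. The members and lists were chosen with earlier results of these data known.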

Additional observations from a re-analysis of the deposited data

How the results depend on the processing

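No alternative reversed the direction of a member. The number of genes called in p45-deficient against control cells was 2073, against 3907 in a fit to only these groups and 258 to 3923 with 1 library left out. In Tcf1-deficient against control cells it was 0, against 145 with DESeq2, 33 with no filter and 0 to 894 with 1 library left out (16 and 894 when the omitted library was Tcf1-deficient replicate 1 or 2). In Tcf1-deficient against p45-deficient cells it was 1348, against 2551 with DESeq2, 488 in a fit to only these groups and 105 to 3437 with 1 library left out. In Tcf1-deficient against control cells, Tcf7 passed by DESeq2 and with no filter (log2 fold changes −1.003 and −1.002), and ran from −1.10 to −0.89 with 1 library left out. Lef1 there passed by DESeq2 (0.43) and ran from 0.39 to 0.50 with 1 library left out. In Tcf1-deficient against p45-deficient cells, Tcf7l2 passed by DESeq2 (1.25) and with no filter (1.26), and ran from 0.64 to 1.66 with 1 library left out, and Lef1 ran from −0.75 to −0.66. In p45-deficient against control cells Tcf7l2 ran from −1.91 to −1.54. Why these calls moved was not tested, beyond the smaller number of libraries in some fits. Where an omission left a group with 1 library, that library was assumed to vary like the other groups.

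Same-numbered libraries showed no shared deviation across groups, which does not tell whether they were handled together. The correlation of same-numbered deviations was −0.03 between Tcf1-deficient and p45-deficient, −0.05 between Tcf1-deficient and control and −0.01 between p45-deficient and control libraries. With the replicate block, 1613 genes were called in p45-deficient against control, 0 in Tcf1-deficient against control and 920 in Tcf1-deficient against p45-deficient cells, and no member's call changed. Depth limits Tcf7l1, with 12 to 39 counts a library.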
